A study of Homo sapiens with 10 samples.

Results

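Histone acetylation was examined at 9 genes used to recognise astrocytes: GFAP, VIM, CD44, SOX9, S100B, AQP4, SLC1A3, GJA1 and ALDH1L1. Each gene was taken as a fixed stretch of the hg19 genome, given to the nearest kb and widened by 10 kb on either side. Every enriched island that overlapped it by at least 1 bp was counted to that gene. An island is a run of 200-bp windows in which antibody reads exceed those of the control, as the authors' caller drew it. Of 778773 islands in 9 lists, 270 met this rule.

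The cells were immortalized human astrocytes, a fetal astrocyte line made with SV40 and grown in medium with serum and EGF, so the values describe 1 immortalised line and not astrocytes in tissue. The line carries IDH1-R132H, the tumour-associated form of isocitrate dehydrogenase 1, under doxycycline control. The labels give the genotype as WT IDH1 without doxycycline and as IDH1-R132H after 2 days and after 7 days of doxycycline at 1 µg/ml. At each of these states the series holds 1 CUT&RUN library for H3K9ac, 1 for H3K27ac and 1 for H4K16ac. In CUT&RUN an antibody brings a nuclease to the mark and the released DNA is sequenced. All 9 lists share 1 control, a library of cells without doxycycline in which an anti-rabbit HRP antibody took the place of a histone antibody. With 1 library per mark and time there is no replicate spread and no test between times, so each difference below is between libraries. The intervals given are 95% counting intervals only. The design has no cells with doxycycline but without the IDH1-R132H insert, so the drug and the days in culture cannot be told apart from IDH1-R132H.

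GFAP and VIM encode the intermediate filament proteins of astrocytes, GFAP the one most used as their marker and VIM the one prominent in immature and reactive cells. CD44 is the cell-surface receptor for hyaluronan and is raised in reactive astrocytes and in mesenchymal-like glioma cells. SOX9 is a transcription factor needed for the switch from neuron to glia production. SLC1A3 is the glutamate transporter GLAST, GJA1 the gap junction protein connexin 43, and AQP4 the water channel of astrocyte endfeet. S100B is a calcium-binding protein and ALDH1L1 an enzyme of folate metabolism, both used as markers of maturing astrocytes. H3K27ac and H3K9ac are found at active promoters and enhancers, while H4K16ac is a broader mark of open chromatin. Acetylation is not a measure of RNA, which was not analysed here.

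The RefSeq promoter table (build GRCh38.p14) has entries for 6 of the 9 genes: VIM, CD44, AQP4, SLC1A3, GJA1 and ALDH1L1. Each entry covers the sequence just before a start and a little after it. Those of 4 genes are shown because their 5′ ends differ in the lists. CD44 and GJA1 had H3K9ac and H3K27ac islands there in every list, with many and few CpG, AQP4 had none in any list, and ALDH1L1 had them in the doxycycline lists only. Where a gene has several entries the first listed is shown. Capitals mark CpG dinucleotides. The positions belong to GRCh38.p14, and no position was carried between it and hg19.
CD44 promoter, chr11:35138921-35139220, plus strand: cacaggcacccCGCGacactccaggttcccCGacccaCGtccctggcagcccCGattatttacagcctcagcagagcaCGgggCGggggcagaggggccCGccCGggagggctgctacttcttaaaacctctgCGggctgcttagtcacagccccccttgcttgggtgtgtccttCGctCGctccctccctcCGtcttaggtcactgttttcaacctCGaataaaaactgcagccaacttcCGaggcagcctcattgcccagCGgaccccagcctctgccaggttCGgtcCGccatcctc
GJA1 promoter, chr6:121435396-121435695, plus strand: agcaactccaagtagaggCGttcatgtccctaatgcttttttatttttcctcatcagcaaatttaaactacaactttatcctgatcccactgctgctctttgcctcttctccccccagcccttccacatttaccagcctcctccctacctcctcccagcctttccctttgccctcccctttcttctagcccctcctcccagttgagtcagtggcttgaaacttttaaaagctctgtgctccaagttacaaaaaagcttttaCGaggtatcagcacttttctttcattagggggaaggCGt
AQP4 promoter, chr18:26865754-26866053, minus strand: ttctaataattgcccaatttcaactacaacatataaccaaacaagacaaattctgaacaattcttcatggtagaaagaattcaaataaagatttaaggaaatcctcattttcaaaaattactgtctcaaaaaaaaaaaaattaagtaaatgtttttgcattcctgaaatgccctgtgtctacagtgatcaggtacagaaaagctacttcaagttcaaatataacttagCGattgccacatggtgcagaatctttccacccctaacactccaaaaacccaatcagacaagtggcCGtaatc
ALDH1L1 promoter, chr3:126180537-126180836, minus strand: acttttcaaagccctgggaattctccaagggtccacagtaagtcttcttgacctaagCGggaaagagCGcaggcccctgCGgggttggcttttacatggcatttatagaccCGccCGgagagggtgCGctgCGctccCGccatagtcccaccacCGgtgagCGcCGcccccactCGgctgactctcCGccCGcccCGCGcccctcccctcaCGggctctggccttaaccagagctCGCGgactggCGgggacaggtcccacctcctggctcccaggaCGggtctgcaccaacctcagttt

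The ALDH1L1 stretch holds 21 CpG dinucleotides, the CD44 stretch 18, the GJA1 stretch 3 and the AQP4 stretch 2, against a median of 14 over all 35116 promoters of the table. VIM has 10, the 3 SLC1A3 entries 1, 9 and 10, the second ALDH1L1 entry 10, and the other 2 AQP4 entries 4 each. CpG content did not order the genes by acetylation: GJA1, with 3, lay under an H3K27ac island in every list, and ALDH1L1, with 21, in the doxycycline lists only. On both strands, 6 motifs were searched. The GC box GGGCGG, held by 45.0% of all promoters of this length, occurs 4 times in the ALDH1L1 stretch, 2 times in that of CD44 and 1 time in that of VIM. The AP-1 motif TGANTCA, held by 7.71%, occurs 1 time in GJA1 and 2 times in the third SLC1A3 entry. The TATA box TATAAA (11.5% of promoters) occurs in the ALDH1L1 stretch shown and in the third AQP4 entry, and the STAT motif TTCNNNGAA (7.66%) in the third AQP4 and first SLC1A3 entries. The first SLC1A3 entry also has 1 GC box. The NFI motif, with 0.0285% of promoters, and the SOX motif ACAATGG, with 3.16%, had no match in the 11 entries of the 6 genes. These are matches of letters, not measured binding.

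The H3K9ac libraries were 3.05 (no doxycycline), 4.17 (2 days) and 4.88 (7 days) times the size of the HRP library. In the same order the H3K27ac libraries were 3.98, 3.15 and 1.49 times its size, and those of H4K16ac 2.53, 3.08 and 7.88 times. The H3K27ac library at 7 days was thus the shallowest and the H4K16ac library at 7 days the deepest. A level below means the antibody reads of islands inside a widened gene stretch, divided by this relative size and by the stretch's length in kb. Only reads in islands were used here, so a gene without an island is one below the caller's threshold and not one shown to lack the mark.

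For the H3 marks the 9 genes fell into those listed at every time and those listed seldom or never. VIM, CD44, GFAP, SOX9, SLC1A3 and GJA1 had an island of H3K9ac and of H3K27ac at every time. AQP4 had none in any of the 9 lists, and ALDH1L1 and S100B had at most 1 island per list. The cells are labelled astrocytes, and of these markers of the cell type AQP4 and S100B had no H3K27ac island at any time. In order of time, H3K9ac islands were listed at 7, 7 and 8 of the 9 genes. H3K27ac was listed at 6, 7 and 7 of them, and H4K16ac at 7, 6 and 6. Over the genome, H3K9ac islands touched 40.6%, 43.3% and 42.6% of 30-kb stretches at the same times. H3K27ac islands touched 35.2%, 35.8% and 42.6% of them, and H4K16ac islands 43.0%, 40.2% and 43.1%. The widened gene stretches are 26 to 114 kb long, and the longer ones have more room to catch an island.

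**Figure D1:**
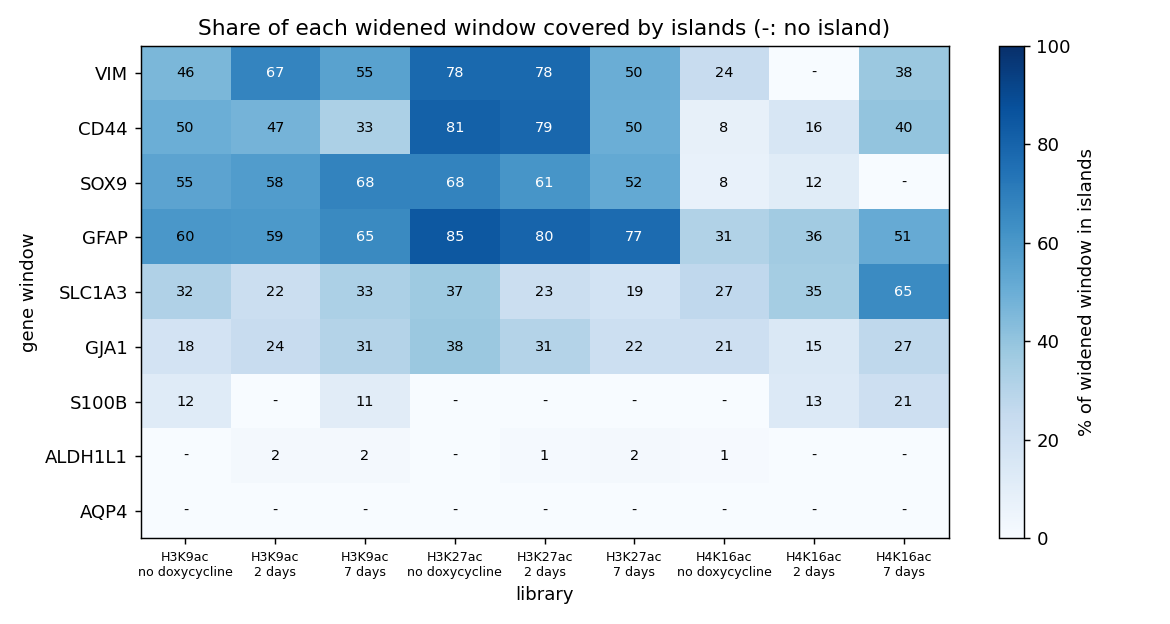
Share of each widened gene stretch that lay in islands (colour and printed percentage), by gene (rows) and library (columns); a dash marks no island. H3K27ac covered 81% of the CD44 stretch without doxycycline and 50% at 7 days, whereas H4K16ac covered 8% and 40%.

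H3K27ac without doxycycline was highest at VIM, with a level of 14.9 reads per kb (14.3 to 15.6). GFAP followed at 11.2 (10.6 to 11.8), SOX9 at 11.0 (10.3 to 11.6) and CD44 at 10.1 (9.81 to 10.4). The intervals of GFAP and SOX9 overlap, and so do those of SOX9 and CD44. GJA1 at 5.15 (4.78 to 5.55) and SLC1A3 at 3.34 (3.17 to 3.53) were lower, with intervals apart from each other and from the rest. The HRP reads under the same islands came to between 0.833 and 1.91 per kb at these 6 genes, below the antibody level at each. In the stretches not widened the order was VIM 18.2, SOX9 17.8, CD44 11.4, GFAP 11.3, GJA1 8.56 and SLC1A3 2.73. GFAP was then behind SOX9 and CD44, and 33.8% of its H3K27ac reads lay inside the gene.

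The H3K9ac order without doxycycline was GFAP 4.77 (4.33 to 5.24), SOX9 4.12 (3.68 to 4.58), VIM 3.56 (3.19 to 3.97), CD44 2.83 (2.65 to 3.01), SLC1A3 1.86 (1.71 to 2.01), GJA1 1.54 (1.31 to 1.80) and S100B 0.559 (0.409 to 0.745). The neighbouring pairs GFAP and SOX9, SOX9 and VIM, and SLC1A3 and GJA1 overlap in their intervals. In the stretches not widened the order was SOX9 6.67, VIM 3.98, CD44 3.14, GFAP 2.75, GJA1 2.66, S100B 2.16 and SLC1A3 1.54. GFAP was then not the first, and only 19.2% of its H3K9ac reads lay inside the gene. In the widened stretches the H4K16ac order was different. It ran GFAP 1.69 (1.41 to 2.00), SLC1A3 1.47 (1.33 to 1.63), VIM 1.11 (0.882 to 1.37), GJA1 1.05 (0.841 to 1.28), CD44 0.510 (0.430 to 0.598) and SOX9 0.501 (0.345 to 0.704). Each of these overlaps its neighbour except GJA1 and CD44. ALDH1L1 had 0.0846 (0.0524 to 0.129). In the stretches not widened the order was GFAP 2.27, GJA1 1.70, SLC1A3 1.32 and CD44 0.344. VIM, SOX9 and ALDH1L1 had no H4K16ac island there, so their levels came from the 10 kb on either side. SOX9, among the highest for both H3 marks, was thus near the bottom for H4K16ac. The antibodies differ between marks, so levels are ordered within a mark only.

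**Figure D2:**
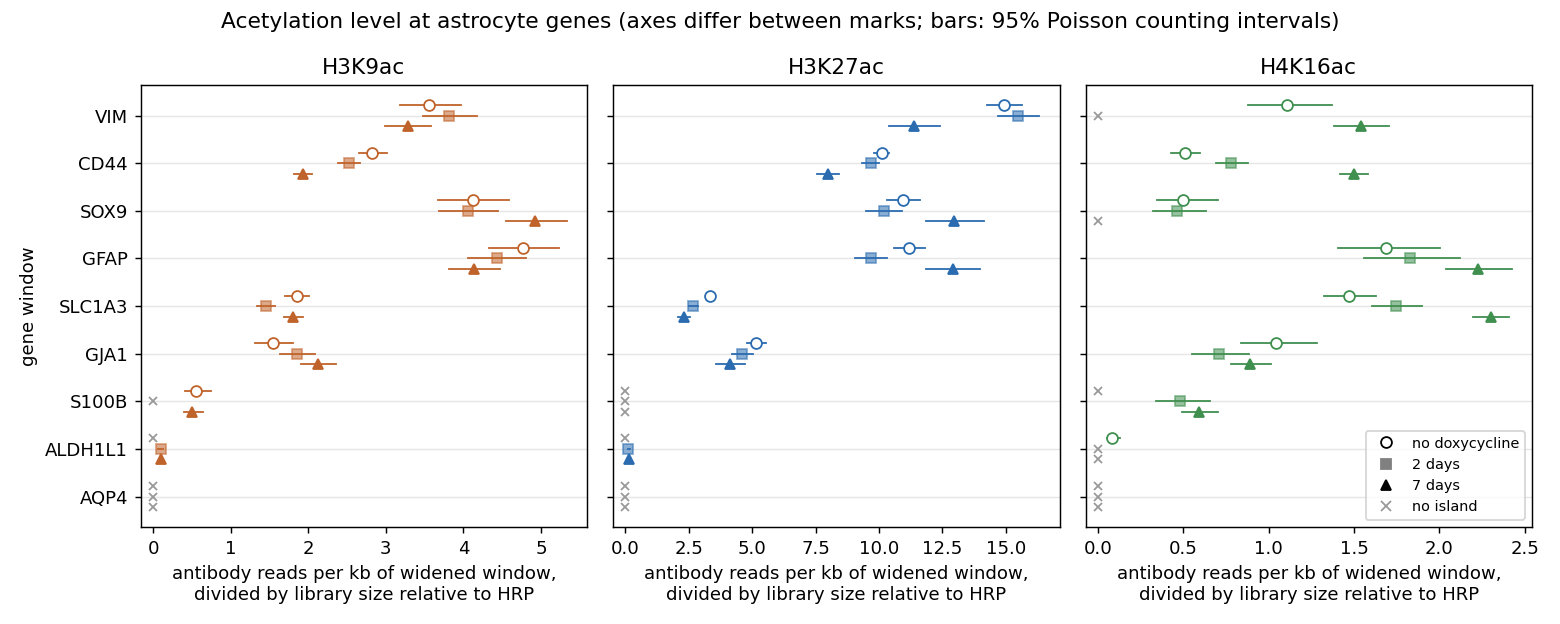
Level of each mark at each gene: antibody reads in islands per kb of widened stretch, divided by library size relative to HRP, with 95% Poisson counting intervals and 1 library per point. The scales of the 3 panels differ; the 4 highest genes for H3K27ac without doxycycline lie between 10.1 and 14.9 reads per kb, and AQP4 has no island in any panel.

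The H3K27ac islands of these genes held a larger share of the other marks' islands than over the genome. They also covered a larger share of these stretches than of the genome. In order of time they covered 209.8, 187.6 and 136.6 kb of the stretches, against 306, 257 and 222 Mb over all chromosomes. The part of this coverage in the overlaps was not tested. Without doxycycline 75.4% of the length of H3K9ac islands in the 9 stretches also lay in H3K27ac islands, against 54.4% over all chromosomes. At 2 days the shares were 88.1% and 45.5%, and at 7 days 61.5% and 35.2%. For H4K16ac the share inside H3K27ac islands was 63.2% against 32.4% without doxycycline, 47.2% against 24.9% at 2 days and 36.1% against 19.1% at 7 days. For the other pairings the share at the genes was lower than over the genome or was higher at some times only. The share of H4K16ac sequence inside H3K9ac islands was 44.1%, 31.1% and 35.3% at the genes in order of time, against 41.1%, 43.7% and 43.6% over all chromosomes. H3K27ac sequence lay in H4K16ac islands for 19.0%, 19.4% and 40.7% against 29.2%, 32.4% and 50.4%, and in H3K9ac islands for 52.0%, 65.5% and 63.3% against 55.7%, 58.1% and 59.4%. H3K9ac sequence lay in H4K16ac islands for 19.2%, 17.2% and 38.7% against 36.2%, 44.5% and 68.4%. S100B had no H3K27ac island at any time, so its H3K9ac and H4K16ac islands could lie in none. These overlaps are descriptions of single lists, and the 3 lists of a time share the HRP control.

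GFAP carried H3K27ac over most of its stretch at each time, with 1335, 914 and 577 antibody reads in 3, 4 and 4 islands that covered 84.7%, 80.0% and 77.3% of it. In order of time the level was 11.2, 9.68 (9.06 to 10.3) and 12.9 (11.9 to 14.0), lower at 2 days and higher at 7 days than without doxycycline. The log2 ratio of the summed reads of whole islands over the library without doxycycline was -0.21 (-0.33 to -0.085) at 2 days and 0.21 (0.063 to 0.35) at 7 days. Scaled by reads in islands the 2-day ratio was -0.10 (-0.23 to 0.018), an interval that took in 0. For whole islands touching the stretch not widened the 7-day ratio was 0.11 (-0.071 to 0.30), which also took in 0. With reads spread evenly along each island, levels inside that stretch were 11.3, 10.1 and 17.1 in order of time, highest at 7 days. Islands covered 72%, 70% and 92% of it. Beside GFAP, in the gene order of GRCh38, lie EFTUD2, which encodes a splicing factor, and KIF18B, which encodes a kinesin. On that build DNAAF19, FAM187A and LOC105371793 also reach within 10 kb of GFAP. The island with the most reads without doxycycline, chr17:42973201-42981000, held 492 reads against 3 HRP reads and ended 2 kb short of the GFAP stretch. H3K9ac at GFAP had 446, 577 and 740 reads and levels of 4.77, 4.43 and 4.14, all with overlapping intervals between neighbouring times. H4K16ac had 233, 169 and 816 reads and levels of 1.69, 1.83 and 2.22. Inside the stretch not widened its levels went the other way, at 2.27, 1.16 and 1.04. The H4K16ac log2 ratio of whole islands was -0.75 (-1.04 to -0.46) at 2 days and 0.17 (-0.041 to 0.39) at 7 days. At 7 days it was -0.34 (-0.55 to -0.12) scaled by reads in islands and -1.69 (-2.15 to -1.23) for the stretch not widened.

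VIM had the highest H3K27ac level without doxycycline and the widest domain at 2 days. The mark was listed as 2 islands of 28.6 kb and 17.2 kb without doxycycline, 1 island of 48.8 kb at 2 days and 3 islands of 16.6, 7.0 and 6.0 kb at 7 days. Antibody reads were 3739, 3051 and 927. The levels in the widened stretch were 14.9, 15.5 (14.7 to 16.3) and 11.4 (10.4 to 12.4), near equal at the first 2 times and lower at 7 days. Inside the stretch not widened, with reads spread evenly along each island, they were 18.2, 19.9 and 21.3, highest at 7 days. At 7 days the log2 ratio of whole islands was -0.60 (-0.70 to -0.49). Over the whole merged region, that is the stretch formed by the mark's overlapping islands from its 3 lists, it was -0.22 (-0.32 to -0.13), and for the stretch not widened -0.043 (-0.20 to 0.11). Reads are known per island only, so these wide islands do not show where along them the reads lay.

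H3K9ac at VIM was 1 of the 2 cases in which whole-island sums differed by 2-fold or more, but over whole merged regions the difference was below 2-fold, an alternative chosen after seeing the data. The reads were 863 without doxycycline, 482 at 2 days and 481 at 7 days. After scaling, these came to 283, 116 and 98.5, log2 ratios of -1.29 (-1.46 to -1.13) and -1.52 (-1.69 to -1.36). The difference rests on 1 island, chr10:17240401-17263600, which is 23.2 kb long, held 636 of the 863 reads, and reached only its last 3.6 kb into the widened stretch. Islands were listed in the same merged region, chr10:17237801-17265600, at all times, with 683, 824 and 707 reads over 25, 27 and 20.2 kb, log2 ratios of -0.18 and -0.63. At 2 days 1 of them, with 116 reads, reached the widened stretch, and at 7 days none did. With all islands of the merged regions counted, the ratios of the gene were -0.066 (-0.19 to 0.061) and -0.30 (-0.42 to -0.17). Counting only reads inside the widened stretch gave levels of 3.56, 3.82 and 3.28 with overlapping intervals. The log2 ratio was then 0.10 at 2 days and -0.12 at 7 days. At the 5′ end the island held 129, 198 and 355 reads over 4.4, 7.4 and 11.8 kb, scaled to 42.3, 47.5 and 72.7 reads. Per kb of that island it was 9.62, 6.41 and 6.16, so the higher sums went with longer islands of lower density.

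H4K16ac at VIM was listed as 3 islands with 84 reads without doxycycline, none at 2 days and 4 islands with 401 reads at 7 days. The islands without doxycycline lay beside the gene and not in it. Only at 7 days did an island, of 3.2 kb and 114 reads, lie at the 5′ end.

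**Figure D3:**
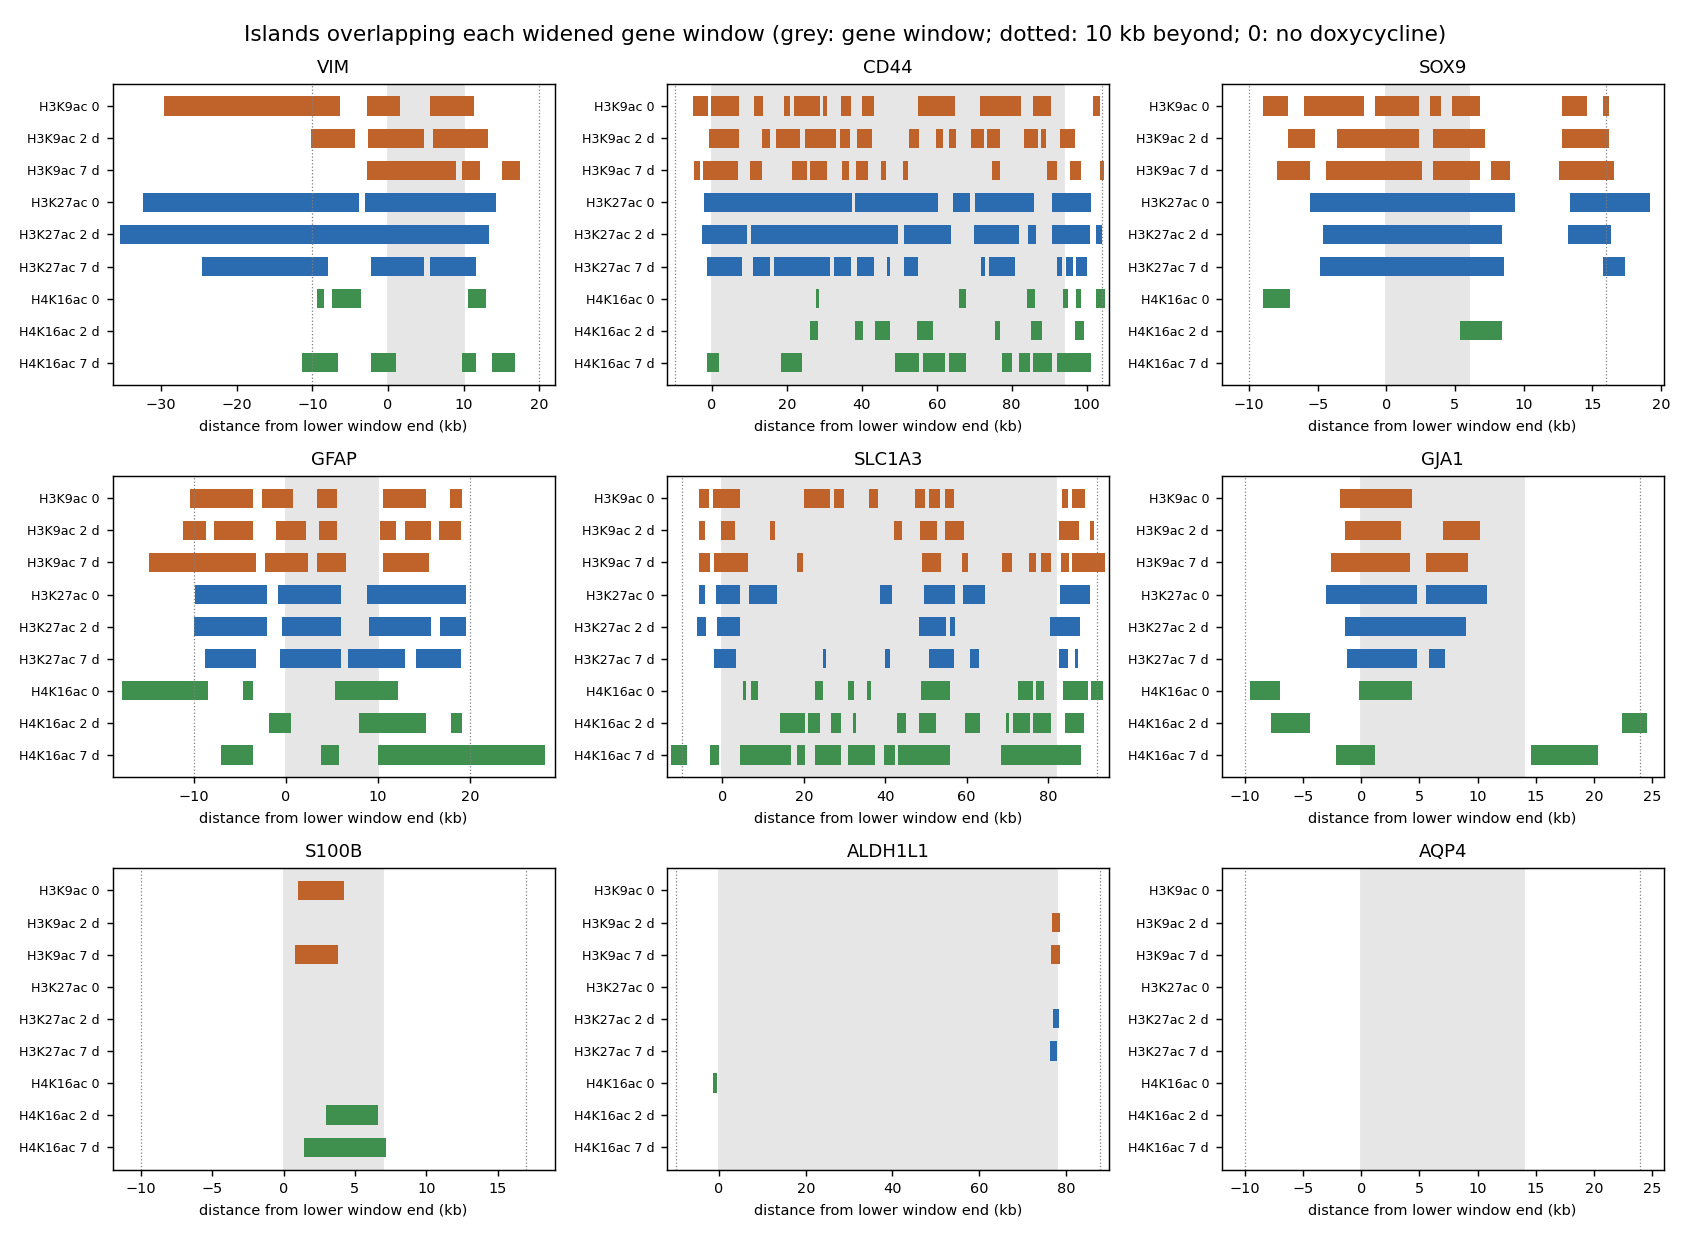
Islands at each gene, drawn to scale by distance from the lower end of the gene stretch in kb, with 1 row per library (orange H3K9ac, blue H3K27ac, green H4K16ac; 0, 2 d and 7 d are days of doxycycline). The grey band is the gene stretch and dotted lines mark 10 kb beyond it; the 39.6-kb H3K27ac island at the start of CD44 without doxycycline is listed in several pieces at 7 days.

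CD44 had the most sequence under H3K27ac of the 9 genes. Without doxycycline the mark was listed as 5 islands with 4585 reads that covered 92.4 kb, or 81.1%, of the widened stretch. The widest, chr11:35157801-35197400, spans 39.6 kb from the 5′ end, with 2903 reads against 76 HRP reads, a fold of 9.60 in the authors' deposited table. It is longer than 99.6% of the islands in its list. At 2 days there were 7 islands with 3471 reads covering 78.6%, and at 7 days 12 islands with 1356 reads covering 49.8%. The level was 10.1, 9.66 (9.34 to 9.99) and 7.98 (7.56 to 8.41), with overlapping intervals at the first 2 times and lower at 7 days. The log2 ratio at 7 days was -0.34 (-0.43 to -0.25), while reads per kb of island were higher at 7 days by 0.36 on the log2 scale. The island at the 5′ end held 404 reads over 9.4 kb at 7 days, a fold of 20.8 in the authors' deposited table.

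H3K9ac at CD44 was also lower at 7 days in summed reads. It had 983, 1200 and 1093 reads in 12, 14 and 13 islands, which scaled to levels of 2.83, 2.52 (2.38 to 2.67) and 1.93 (1.81 to 2.05). The log2 ratio at 7 days was -0.53 (-0.65 to -0.40), but -0.21 (-0.38 to -0.048) with HRP reads subtracted and -0.068 (-0.23 to 0.092) among islands with FDR at most 0.001 and fold at least 2. With that filter the 2-day ratio turned from -0.16 to 0.32. At 7 days the 5′ end differed from parts of the gene body. The 5′ island held 221, 258 and 339 reads, which scaled to 72.5, 61.8 and 69.4, nearly the same without doxycycline and at 7 days. In the body, an island of 11.0 kb with 160 reads (chr11:35231601-35242600) was followed at 7 days by one of 2.0 kb with 89 reads. The log2 ratio over that merged region was -1.53, the lowest in the body, and the first island's deposited fold was only 1.46. The other body regions listed at both times had ratios from -1.02 to -0.22. By the same measure the merged region at the 5′ end, chr11:35155001-35167200, had -0.16, near the highest of these. Some body islands were listed at 7 days only, and others without doxycycline only.

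H4K16ac at CD44 was the other case of 2-fold or more, and the only one that was higher. The reads were 159 without doxycycline, 275 at 2 days and 1347 at 7 days. They scaled to 62.8, 89.1 and 171, log2 ratios of 0.51 (0.22 to 0.80) and 1.44 (1.21 to 1.69). The 7-day ratio was under 2-fold, at 0.93 scaled by reads in islands and 0.52 with HRP reads subtracted, and 2.09 for the stretch not widened. Among islands with FDR at most 0.001 and fold at least 2 it turned to -1.42 (-1.76 to -1.07), from 5 islands without doxycycline and 2 at 7 days. The covered share went from 7.89% to 16.3% and 40.2%, and the islands from 6 to 7 and 9. Reads per kb of island went the other way, by -0.78 on the log2 scale at 7 days, and the ratio of scaled antibody reads to HRP reads in the islands was 2.99, 2.29 and 1.54. At 7 days the library was larger by a factor of 3.11 than without doxycycline, and its smallest island held 33 reads against 11. More of the gene was thus listed at a lower density in a deeper library, and the part of depth in this was not tested. An island of 3.2 kb with 82 reads lay at the 5′ end at 7 days only.

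SOX9 had H3K27ac over the whole of its 6-kb gene at each time. The reads were 1224, 845 and 519 in 2 islands at each time, and the island over the gene measured 15, 13 and 13.4 kb. The level in the widened stretch was 11.0, 10.2 (9.5 to 10.9) and 13 (11.8 to 14.1). The log2 ratios were -0.20 (-0.32 to -0.068) at 2 days and 0.18 (0.028 to 0.33) at 7 days, on either side of the library without doxycycline as at GFAP. The 2-day ratio was -0.092 (-0.22 to 0.035) scaled by reads in islands and 0.012 (-0.12 to 0.14) for islands lying mostly inside the stretch. The 7-day ratio was 0.12 (-0.028 to 0.28) with equally many islands per list. The second island, beyond the upper end of the gene, went from 164 to 98 and 19 reads, a log2 ratio of -1.69 at 7 days. H3K9ac had 335, 444 and 640 reads and levels of 4.12, 4.06 (3.69 to 4.45) and 4.93 (4.55 to 5.33). H4K16ac was sparse, with 1 island of 33 reads without doxycycline, 1 of 37 reads elsewhere in the stretch at 2 days and none at 7 days.

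At SLC1A3 summed H3K27ac was lower at 7 days than without doxycycline. Summed H4K16ac was higher by more than its counting interval under some alternatives only. H3K27ac had 1358, 857 and 350 reads and levels of 3.34, 2.67 (2.49 to 2.85) and 2.3 (2.07 to 2.56), lower at each later time. Its log2 ratios were -0.32 (-0.45 to -0.20) and -0.54 (-0.71 to -0.37), the first of which was 0.012 (-0.13 to 0.15) for the stretch not widened. The covered share went from 37.3% to 22.5% and 18.6%. Reads per kb of island went the other way, higher by 0.40 at 2 days and 0.46 at 7 days on the log2 scale. H4K16ac had 399, 550 and 1920 reads and levels of 1.47, 1.75 (1.60 to 1.90) and 2.3 (2.20 to 2.41). Its log2 ratio at 7 days was 0.63 (0.47 to 0.79). It was 0.12 (-0.038 to 0.28) scaled by reads in islands, 0.15 (-0.051 to 0.36) with HRP reads subtracted and 0.13 (-0.052 to 0.31) with the FDR and fold filter, but 1.03 (0.85 to 1.22) for the stretch not widened. The covered share went from 26.7% to 35.5% and 65.1%. As at CD44, H4K16ac reads per kb of island were lower at 7 days, by -0.63 on the log2 scale. H3K9ac had 577, 619 and 945 reads and levels of 1.86, 1.45 (1.34 to 1.57) and 1.81 (1.69 to 1.93), lowest at 2 days. The 2-day log2 ratio of -0.35 turned to 0.25 with the FDR and fold filter.

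GJA1 had an H3K9ac and an H3K27ac island over its 5′ end in each list. For H3K9ac this island held 160, 192 and 257 reads, scaled to 52.5, 46.0 and 52.6. A second H3K9ac island inside the gene was listed at 2 days (71 reads) and 7 days (96 reads) and not without doxycycline. The gene's level was 1.54, 1.85 (1.64 to 2.09) and 2.13 (1.91 to 2.36), and the log2 ratio 0.26 (-0.025 to 0.56) and 0.46 (0.19 to 0.74). At 2 days the ratio turned to -0.19 with equally many islands per list, which left out the second island. The higher level thus went with the second island and not with the one at the 5′ end. H3K27ac had 697, 491 and 209 reads and levels of 5.15, 4.59 (4.19 to 5.01) and 4.12 (3.58 to 4.72). Its reads per kb of island were higher, by 0.16 at 2 days and 0.49 at 7 days on the log2 scale. H4K16ac had 90, 84 and 239 reads and levels of 1.05, 0.710 (0.554 to 0.886) and 0.892 (0.782 to 1.01). At the 5′ end H4K16ac had an island of 63 reads without doxycycline, none at 2 days and 1 of 85 reads at 7 days, a log2 ratio of -1.21 over the merged region.

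ALDH1L1 was the gene with islands of both H3 marks at its 5′ end in the doxycycline lists and not without doxycycline. H3K9ac had 40 reads over 1.8 kb at 2 days (chr3:125898801-125900600) and 48 reads over 2.0 kb at 7 days. The authors' deposited folds were 1.92 and 1.97. H3K27ac had 36 reads over 1.4 kb at 2 days and 19 reads over 1.6 kb at 7 days, with deposited folds of 2.29 and 4.25. The HRP reads under these islands were 3 to 5. With equally many islands taken per list, both H3K27ac islands and the H3K9ac island at 2 days were left out, and the H3K9ac island at 7 days was kept. With the FDR and fold filter both H3K27ac islands were kept and both H3K9ac islands left out. The smallest islands listed held 14 and 17 reads for H3K9ac and 14 and 11 for H3K27ac at these times. H4K16ac had 1 island of 21 reads near the other end of the gene without doxycycline and none later. Among all merged regions, 9.85% for H3K9ac and 2.73% for H3K27ac had an island at both later times and none without doxycycline. At the 9 genes it was 3 of 43 H3K9ac regions, at ALDH1L1, CD44 and GJA1, and 1 of 22 H3K27ac regions, at ALDH1L1, shares near this background for both marks. For H4K16ac it was 2 of 38, at CD44 and S100B, against 9.92%.

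S100B had no H3K27ac island at any time. H3K9ac had 1 island of 46 reads without doxycycline, none at 2 days and 1 of 67 reads at 7 days, with levels of 0.559 and 0.508 (0.394 to 0.645). H4K16ac had no island without doxycycline, 1 of 40 reads at 2 days and 1 of 126 reads over 5.8 kb at 7 days. That last island covered 80.0% of the 7-kb gene, but by reads per kb it was above only 1.34% of the islands of its list.

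At the 5′ ends of the 6 genes whose strand the promoter table gives, the 2 H3 marks were listed at the same genes. VIM, CD44, SLC1A3 and GJA1 had an H3K9ac and an H3K27ac island within 1 kb of the 5′ end at every time, ALDH1L1 joined them at 2 and 7 days, and AQP4 did not. H4K16ac was at 1 of these 6 ends without doxycycline (GJA1), at none at 2 days and at 4 at 7 days (VIM, CD44, SLC1A3 and GJA1). The H4K16ac islands there at 7 days held 75 to 114 reads. The higher count at 7 days was in the deepest library, and the part of depth in it was not tested.

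Compared over time as a set, the genes' medians lay near 0 for H3K9ac, below 0 for H3K27ac and above 0 for H4K16ac at 7 days. The median log2 ratio over the genes listed at both times was -0.12 at 2 days (6 genes, range -1.29 to 0.26) and 0.032 at 7 days (7 genes, -1.52 to 0.46) for H3K9ac. It was -0.18 (6 genes, -0.32 to 0.045) and -0.33 (6 genes, -0.60 to 0.21) for H3K27ac, and -0.12 (5 genes, -0.75 to 0.51) and 0.62 (5 genes, -0.23 to 1.44) for H4K16ac. The medians over all shared merged regions were -0.13 and -0.042, -0.12 and -0.15, and 0.15 and 0.42, in the same order. These are unlike measures, since a gene's sum also takes in islands listed at 1 of the 2 times only. Over the genes' own shared merged regions the medians were -0.11 and -0.14, -0.13 and -0.27, and -0.097 and 0.31. These lay on the same side of 0 as those of all regions except for H4K16ac at 2 days.

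By merged region, the genes' counts of 2-fold differences are given beside the shares of all regions. For H3K9ac 0 of 24 regions at 2 days were 2-fold higher and 0 lower, against 4.64% and 9.51% of all regions. At 7 days 0 of 23 were higher and 2 lower, both at CD44, against 5.76% and 6.18%. For H3K27ac it was 0 of 14 either way at 2 days (all regions 0.472% and 3.41%), and 0 of 15 higher and 1 lower, at SOX9, at 7 days (2.15% and 8.67%). For H4K16ac 1 of 12 was higher, at SLC1A3, and 2 were lower, at GFAP and SLC1A3, at 2 days (15.2% and 8.32%). At 7 days 3 of 15 were higher, 1 at CD44 and 2 at SLC1A3, and 1 lower, at GJA1 (22.9% and 2.35%). These counts rest on 12 to 24 regions.

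Some regions had no island at the later time. For H3K9ac 5 of 29 regions present without doxycycline had none at 2 days and 6 of 29 at 7 days, against 27.3% and 28.6% of all regions. For H3K27ac it was 4 of 18 and 3 of 18, against 12.3% and 20.2%, and for H4K16ac 9 of 21 and 6 of 21, against 46.2% and 35.6%. The genes' share was below that of all regions except for H3K27ac at 2 days. It was near that share for H4K16ac at 2 days and H3K27ac at 7 days, and these counts rest on 18 to 29 regions. Per kb of island the median log2 ratio over the genes' regions was -0.17 and -0.22 (H3K9ac), -0.061 and 0.41 (H3K27ac), and -0.14 and -0.56 (H4K16ac). Over all regions it was -0.032 and -0.17, 0.14 and 0.46, and -0.20 and -0.58. The 7-day values per kb of H3K27ac and H4K16ac at these genes were thus close to those of all regions.

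**Figure D4:**
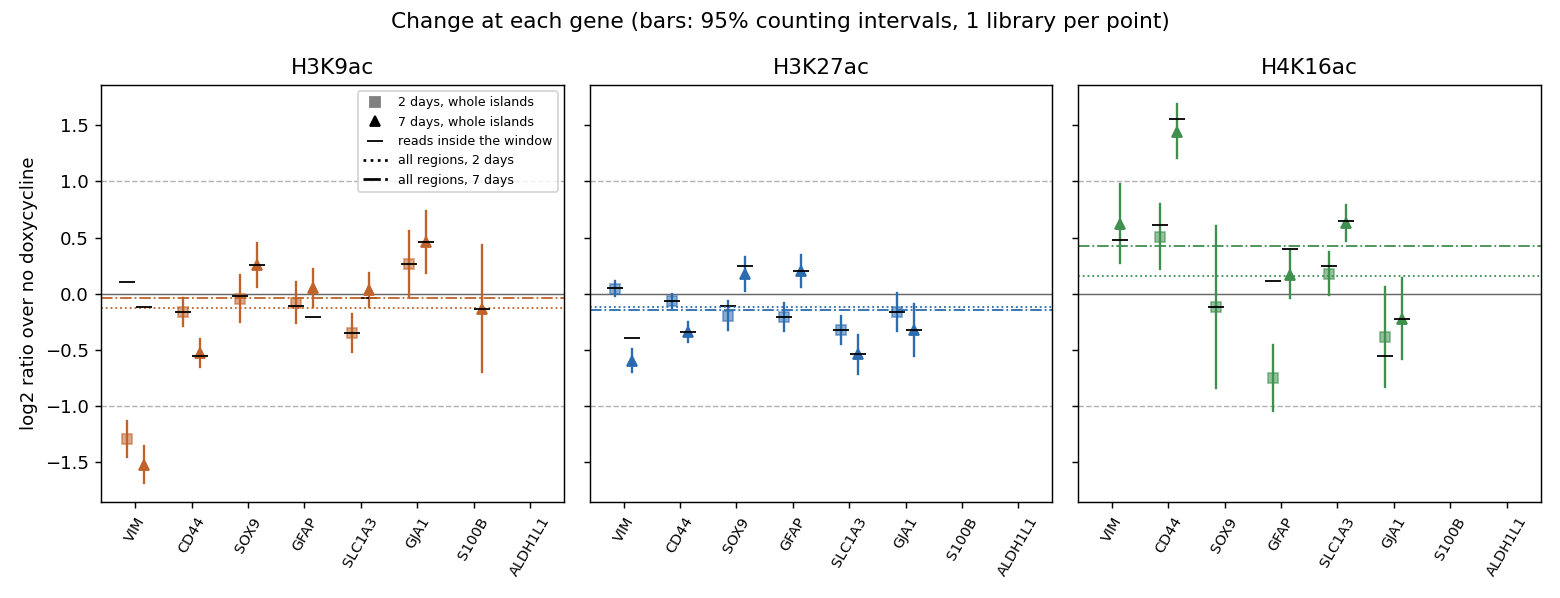
Log2 ratio of scaled antibody reads in whole islands at 2 days (squares) and 7 days (triangles) over the library without doxycycline, with 95% counting intervals; black dashes give the ratio for reads inside the widened stretch alone. Coloured lines are the medians of all shared regions and grey dashed lines mark 2-fold. VIM lies at -1.29 and -1.52 for H3K9ac with its dashes near 0, and CD44 lies at 1.44 for H4K16ac at 7 days.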

How the data were processed

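Acetylation was profiled by CUT&RUN in 9 antibody libraries (H3K9ac, H3K27ac and H4K16ac without doxycycline and after 2 and 7 days) and 1 HRP control, grouped by their titles. The submitters' processing notes name Bowtie2 2.3.5.1, SICER, Picard, cutadapt, deepTools and FastQC, and build hg19. Other versions and the settings were not given in the sources used here. Each deposited list holds, per the file headers, the raw count of antibody reads per island and the HRP count there. The authors' log2 fold equals the log2 ratio of these counts minus a constant for the list, where 0 HRP reads stand as 0.25. Their deposited score is 100 times that fold. The deposited FDR was not used further than the list's own threshold and 1 stricter alternative. The deposited p-value ranked islands for the alternative with equally many islands per list. From each list it kept the islands of lowest p-value, as many as the mark's shortest list holds.

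That constant gave each library's size relative to HRP. From Python 3.11.15 with numpy 2.4.6, pandas 2.3.3 and scipy 1.17.1, reads of islands overlapping a widened gene stretch by at least 1 bp were summed and divided by this size. For levels, an island's reads were spread evenly along it, and only the part inside counted. Ratios have exact Clopper-Pearson 95% intervals and levels exact Poisson ones. Both cover counting error only, and reads copied by PCR, with no molecular identifiers, are not independent. The 5′ end is the window end given by strand, within 1 kb. Coordinates are 1-based hg19 unless said otherwise, leaving out 1 island that was on none of chromosomes 1 to 22 or X. All 9 genes are named. Single islands are named as the one with the most reads, the widest or the one at the 5′ end, and regions past 2-fold or missing from a list were named after their values were seen. Genes, windows and motifs were chosen with earlier results of these data known. No hg19 annotation was used, so neighbours come from the gene order on GRCh38.p14, and markers of other cell types were not analysed here. The code was tested on simulated data.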

Additional observations from a re-analysis of the deposited data

Results flagged for a closer look

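For 2 genes the H3K27ac libraries at 2 days and 7 days lay on opposite sides of the library without doxycycline, with counting intervals away from 0 in the main scaling. GFAP had a log2 ratio of -0.21 at 2 days and 0.21 at 7 days, from 1335, 914 and 577 reads. SOX9 had -0.20 at 2 days and 0.18 at 7 days, from 1224, 845 and 519 reads. Scaled by reads in islands, the 2-day intervals took in 0 (GFAP -0.10, -0.23 to 0.018; SOX9 -0.092, -0.22 to 0.035). The 7-day interval took in 0 for GFAP in the stretch not widened (0.11, -0.071 to 0.30) and for SOX9 with equally many islands per list (0.12, -0.028 to 0.28). The difference between the times was not tested, since each is 1 library, and both ratios share the library without doxycycline. The library sizes relative to that library were 0.791 and 0.375. Their part in the ratios was not tested.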

How the results depend on the processing

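Every result rests on 1 library, and depth limits small islands most, since the smallest listed held 11 to 33 reads. No paired analysis was possible because each mark and time has 1 library. With gene stretches not widened, genes with an H4K16ac island without doxycycline numbered 4, and the median H4K16ac ratio at 2 days was 0.51 (3 genes). With equally many islands taken per list the H4K16ac medians were 0.58 at 2 days and 1.51 at 7 days. VIM H3K9ac changed sign at 2 days, to 0.10 for reads inside the widened stretch, 0.24 for the stretch not widened and 0.63 for islands lying mostly inside, and at 7 days to 0.25 and 0.40 for the last 2. CD44 H4K16ac at 7 days became -1.42 among islands with FDR at most 0.001 and fold at least 2; the cause was not tested. Of 2 alternatives chosen after seeing the data, whole merged regions moved VIM H3K9ac to -0.066 and -0.30 and VIM H3K27ac at 7 days to -0.22. Reads inside the stretch not widened, spread evenly along each island, gave VIM H3K9ac 0.42 and 0.51, and a median for H4K16ac at 2 days of 0.51. In that setting the VIM H3K27ac levels were 18.2, 19.9 and 21.3 in order of time. Over 9 alternatives the median ratios ranged from -0.18 to -0.025 (H3K27ac, 2 days), -0.38 to 0.091 (H3K27ac, 7 days), -0.36 to 0.16 and -0.12 to 0.25 (H3K9ac), and -0.59 to 0.58 and -0.12 to 1.51 (H4K16ac). Of the 6 medians, that of H3K27ac at 2 days kept its sign throughout.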
